A study of Homo sapiens with 2 samples.

Results

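The genes described here encode cytosolic and mitochondrial chaperones, the proteins that help other proteins to fold, together with their co-chaperones and the heat shock factors. They are 42 gene symbols named by family, out of 60527 genes in the deposited table, and were taken by symbol. The choice was made with earlier results of these data known. All 42 were listed, in 43 rows because HSPA14 has 2, and all 42 passed the filter of a mean of at least 1 FPKM (fragments per kilobase of exon and per 1000000 fragments). The 2 cultures labelled SK-MEL-2, a human skin melanoma line, each gave 1 RNA sequencing library from total RNA. One had been given JNJ-7706621, known as an inhibitor of cyclin-dependent and Aurora kinases, at 1.75 µM for 48 h. The other had been given DMSO, the solvent, for 48 h. Both cultures share the line, the medium and the time, and no genetic change is named in the labels.

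With 1 library per group analysed here there is no replicate check and no test, and intervals in parentheses are 95% counting intervals that say nothing about the spread between cultures. In such bulk samples fewer cells of a type and less RNA per cell cannot be told apart. The FPKM values rest on 22817719 reads in the JNJ-7706621 library and 23377161 in the DMSO library, and the members on 87 to 46373 reads each. Of 7 pigment cell markers that define a melanoma line, 5 were nearly absent from both libraries. TYR was listed at 0 in both, and SOX10, DCT, TYRP1 and MLANA stayed under 0.2 FPKM in both. PMEL, the most abundant of the 7, was at 3.71 FPKM with JNJ-7706621 and 2.00 FPKM with DMSO, a ratio of 1.86 (1.55 to 2.24). MITF was at 2.27 FPKM with JNJ-7706621 and 2.65 FPKM with DMSO, while the epithelial keratin KRT18 was at 1123 and 1117 FPKM. The 5 epithelial markers summed to 1979 FPKM with JNJ-7706621 and 1962 FPKM with DMSO. The cells are therefore called the cultures labelled SK-MEL-2, and the part of cell identity in the chaperone values was not tested.

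Chaperones work in relays. HSP70 binds unfolded stretches with the help of J-proteins, which deliver the client and set off ATP hydrolysis, and exchange factors such as the HSP110 and BAG proteins then release it. HSP90 and its co-chaperones take over late folding of signalling proteins, kinases among them, and the CCT ring folds actin and tubulin. In mitochondria HSP60 with its lid HSP10, a dedicated HSP70 and the HSP90 homologue TRAP1 do the corresponding work. The transcription factor HSF1 switches on many of these genes under stress by binding heat shock elements, inverted repeats of the unit nGAAn, in their promoters.

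Promoter stretches that hold such units are shown because exact 3-unit words, defined below, were found in some genes of the set and not in others. Elements with imperfect units were not searched for, so a gene without a 3-unit word may still hold an element. The window searched ran from 250 bases before to 50 bases after each RefSeq gene start on GRCh38, on both strands. A 2-unit word was GAANNTTC or TTCNNGAA. A 3-unit word was GAANNTTC followed by NNGAA, or TTCNNGAA followed by NNTTC, and so always holds overlapping 2-unit words. Capitals mark the runs of words, and each stretch reads 5′ to 3′ on the strand of the gene and lies before its start.
CHORDC1: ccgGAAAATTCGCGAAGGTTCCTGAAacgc
HSPD1: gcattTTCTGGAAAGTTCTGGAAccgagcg
HSPA8, distal: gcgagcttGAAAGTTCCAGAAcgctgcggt
HSPA8, proximal: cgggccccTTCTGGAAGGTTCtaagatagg
HSP90AB1, distal: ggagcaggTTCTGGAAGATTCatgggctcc
HSP90AB1, proximal: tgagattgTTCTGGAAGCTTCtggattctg
HSP90AA1: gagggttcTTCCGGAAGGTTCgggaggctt
DNAJB6: agagccgaGAACCTTCGCGAAggtggggcg
HSPA1A: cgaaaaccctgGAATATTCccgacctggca
HSPA1B: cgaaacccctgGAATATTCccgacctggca
HSPB8: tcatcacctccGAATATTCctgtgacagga

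These stretches lie at chr11:90223083-90223112 on the minus strand for CHORDC1 and at chr2:197500061-197500090 on the minus strand for HSPD1. Those of HSPA8 lie at chr11:123062345-123062374 and chr11:123062170-123062199, both on the minus strand. Those of HSP90AB1 lie at chr6:44247770-44247799 and chr6:44247823-44247852, both on the plus strand, and that of HSP90AA1 at chr14:102087111-102087140 on the minus strand. DNAJB6 has its run at chr7:157336865-157336894, and HSPB8 at chr12:119178832-119178861, both on the plus strand. The stretches of HSPA1A at chr6:31815426-31815455 and HSPA1B at chr6:31827622-31827651, both on the plus strand, hold the same 8-base word. The first 8 stretches hold 3-unit words, with the longest run in CHORDC1 at 23 bases, and the last 3 hold 2-unit words only.

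Most chaperone mRNAs stood slightly higher with JNJ-7706621. Of the 42 chaperone genes 36 had a positive log2 difference, log2(FPKM + 1) with JNJ-7706621 minus log2(FPKM + 1) with DMSO, where 49.6% of all 13241 genes that passed the filter did. The other 6 were negative, where 50.4% of all genes were. The median log2 difference of the members was 0.27, against a median of -0.0032 over all genes and 0.00069 over the 10167 protein-coding ones. The members' FPKM values summed to 3005 with JNJ-7706621 and 2436 with DMSO, a ratio of 1.23, and their reads made up 1.23% and 1.02% of the library totals.

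The differences were small. None of the members passed a log2 difference of 1 in either direction, which 2.39% of all genes did upward and 1.36% downward. HSPB8 reached 1.18 with a pseudocount of 0.1 and 1.00 after rescaling. At a log2 difference of at least 0.5, about 1.41-fold, 6 of 42 were higher, against 11.0% of all genes, so the share is near the background. They were HSPB8, FKBP4, AHSA1, DNAJB6, TRAP1 and CCT7. CCT7 fell short after rescaling (0.49), after centring (0.48) and with a correction for exon length and GC content (0.32), and CHORDC1 passed with that correction (0.58). Only BAG1 was lower by 0.5 or more, which 9.75% of all genes were. The counting interval of the FPKM ratio lay above 1 for 34 members, against 32.8% of the 13108 genes with recovered reads, and below 1 for 5, against 33.2%. Whether an interval leaves out 1 also depends on the number of reads, and genes of like depth were not compared. The intervals of HSPA1A, HSF1 and HSF2 held 1.

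**Figure D1:**
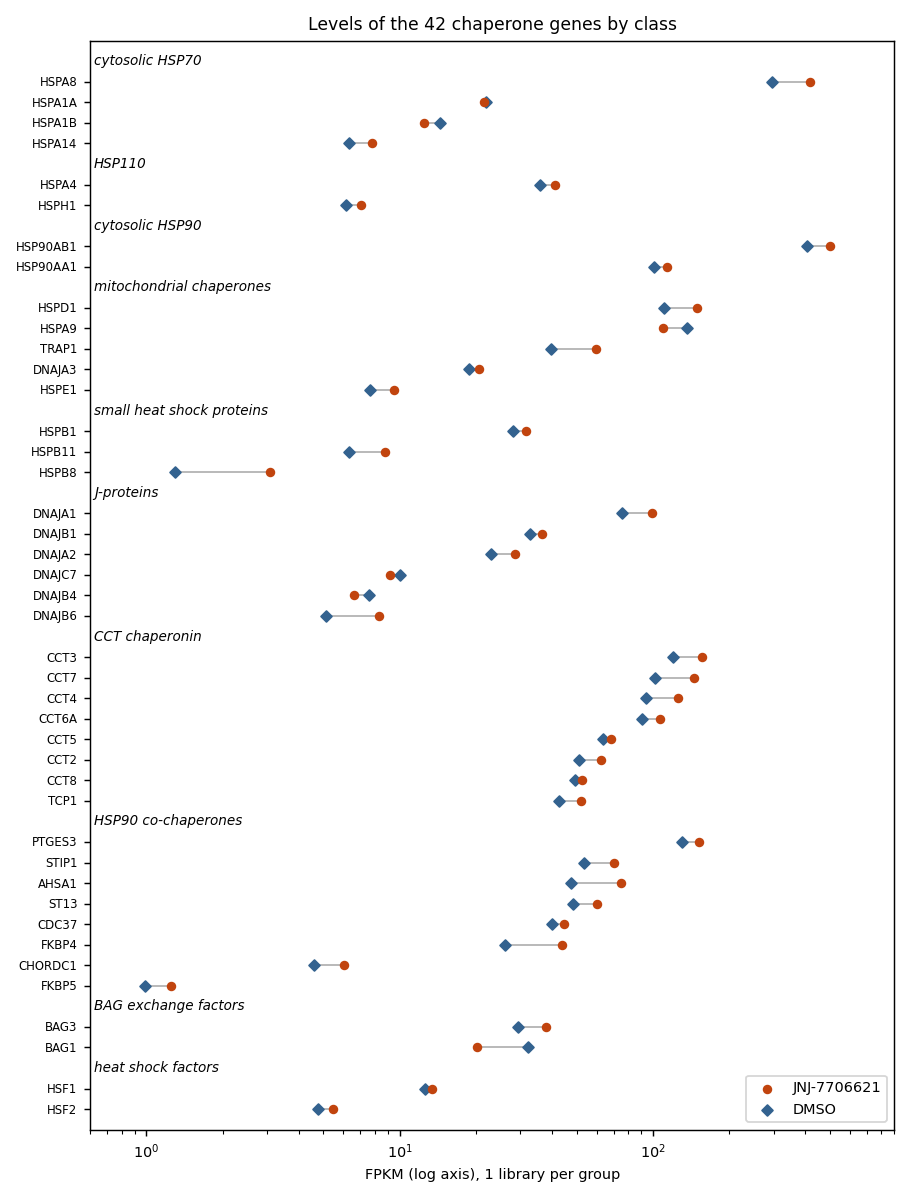
FPKM of the 42 chaperone genes on a log axis, by class and, within a class, by mean level, with circles for the JNJ-7706621 library and diamonds for the DMSO library. Circles lie right of diamonds for 36 genes, and levels span from FKBP5, at 1.25 and 0.990 FPKM, to HSP90AB1, at 501 and 406 FPKM.

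**Figure D2:**
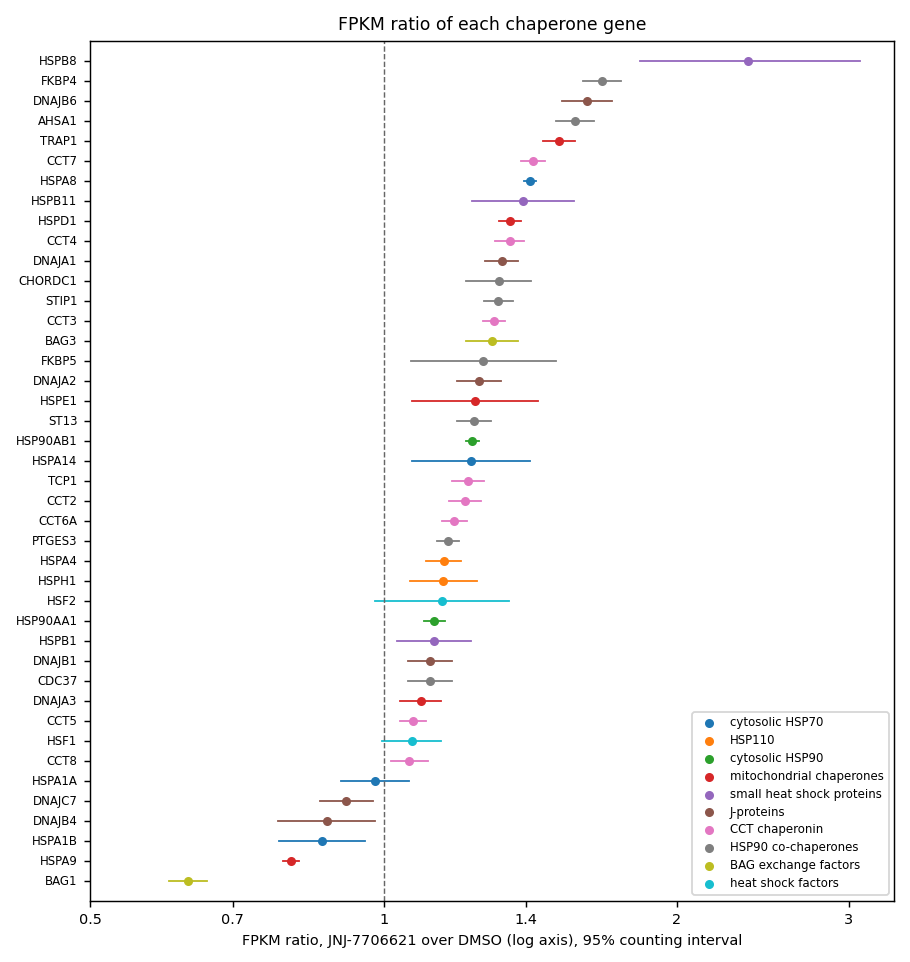
FPKM ratio of each gene, JNJ-7706621 over DMSO, on a log axis, with its 95% counting interval and coloured by class. HSPB8 at 2.37 and BAG1 at 0.630 are the extremes, and the intervals of 3 genes hold 1.

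The cytosolic HSP70 genes did not all move together. HSPA8, the constitutive HSP70 of every cell, stood at 419 FPKM with JNJ-7706621 and 297 FPKM with DMSO, a ratio of 1.41 (1.39 to 1.43). Its log2 difference of 0.50 fell just short of the size rule of 0.5 before rounding, and rested on 46373 and 33640 reads. HSPA1A, the stress-inducible HSP70, stood at 21.6 FPKM with JNJ-7706621 and 22.0 FPKM with DMSO, a ratio of 0.980 (0.904 to 1.06). Its near copy HSPA1B stood at 12.5 and 14.5 FPKM, a ratio of 0.865 (0.782 to 0.956), and shares 36.5% of its exon bases with exons of other genes. The constitutive gene was thus higher in the JNJ-7706621 library while neither inducible one was, except that the length and GC correction put HSPA1A at a log2 difference of 0.03. The inducible pair together amounted to 8.14% of the HSPA8 level with JNJ-7706621 and 12.3% with DMSO.

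HSPA1A and HSPA1B share sequence, so their separate values are uncertain. Of the 75-base words in HSPA1A transcripts 69.3% also occur in HSPA1B transcripts. Their summed FPKM was 34.1 with JNJ-7706621 and 36.5 with DMSO. HSPA14, a ribosome-associated HSP70 relative, stood at 7.79 FPKM with JNJ-7706621 and 6.34 FPKM with DMSO. Its second row, an overlapping gene of the same symbol, stood at 7.16 and 4.50 FPKM, and both were higher with JNJ-7706621. Outside the set, HSPA6, the strictly heat-inducible HSP70, had 17 reads with JNJ-7706621 and 6 with DMSO. Its ratio was 2.90 (1.09 to 8.99), at a mean under the filter of 1 FPKM.

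HSP110 proteins exchange the nucleotide of HSP70. HSPA4 stood at 41.2 FPKM with JNJ-7706621 and 35.8 FPKM with DMSO, and HSPH1, the stress-responsive family member, at 7.05 and 6.12 FPKM. Their ratios were the same within counting error, 1.15 (1.11 to 1.20) and 1.15 (1.06 to 1.25). With the length and GC correction they differed, at log2 differences of 0.20 for HSPA4 and 0.38 for HSPH1. The BAG exchange factors went in opposite directions. BAG1, which also binds the survival factor BCL2, stood at 20.2 FPKM with JNJ-7706621 and 32.1 FPKM with DMSO, a ratio of 0.630 (0.603 to 0.658). BAG3, which routes clients to autophagy together with HSPB8, stood at 38.0 and 29.4 FPKM, a ratio of 1.29 (1.22 to 1.37). In FPKM, BAG3 was thus at 1.88 times the level of BAG1 with JNJ-7706621 and at 0.915 times with DMSO. The order of these genes depends on the exon lengths used, 7073 bases for BAG1 and 2747 for BAG3. In reads BAG1 exceeded BAG3 in both libraries, as BAG3 had 2383 with JNJ-7706621 and 1889 with DMSO. BAG1 was the member furthest below 0, with a log2 difference of -0.64 on 3267 and 5313 reads.

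Among the 6 J-proteins 4 were higher and 2 lower in the JNJ-7706621 library. DNAJB6, which keeps polyglutamine proteins from aggregating, stood at 8.26 FPKM with JNJ-7706621 and 5.11 FPKM with DMSO, a ratio of 1.62 (1.52 to 1.72). DNAJA1, a major cytosolic partner of HSPA8, stood at 99.7 and 75.5 FPKM, a ratio of 1.32 (1.27 to 1.37). Its relative DNAJA2 stood at 28.7 FPKM with JNJ-7706621 and 22.9 FPKM with DMSO. DNAJB1, the J-protein most typical of the heat shock response, differed less, at 36.5 FPKM with JNJ-7706621 and 32.8 FPKM with DMSO, a ratio of 1.12 (1.06 to 1.17). DNAJB4 stood at 6.62 and 7.57 FPKM, and DNAJC7, which binds HSP70 and HSP90 through TPR repeats, at 9.17 and 10.01 FPKM. These 2, lower with JNJ-7706621, had ratios of 0.874 (0.780 to 0.980) and 0.916 (0.861 to 0.975). Both were weakly expressed, but DNAJB6, with the largest ratio of the 6, had the lowest mean FPKM. That rank depends on the exon lengths used, 14981 bases for DNAJB6 and 3702 for DNAJB4. In reads DNAJB6 exceeded DNAJB4 in both libraries, at 2824 against 559 with JNJ-7706621 and 1790 against 655 with DMSO.

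Both cytosolic HSP90 genes were higher with JNJ-7706621. HSP90AB1, the constitutive form, was the most abundant member, at 501 FPKM with JNJ-7706621 and 406 FPKM with DMSO, a ratio of 1.23 (1.21 to 1.25). HSP90AA1, the stress-inducible form, stood at 114 and 101 FPKM, a ratio of 1.13 (1.10 to 1.15). In FPKM, the constitutive form was at 4.41 times the level of the inducible one with JNJ-7706621 and at 4.03 times with DMSO. These multiples depend on the exon lengths used, 2980 bases for HSP90AB1 and 5248 for HSP90AA1. In reads HSP90AB1 also exceeded HSP90AA1, at 34033 against 13596 with JNJ-7706621 and 28266 against 12361 with DMSO. The constitutive gene had the larger ratio, and the intervals did not overlap. The length and GC correction turned this order round, with log2 differences of 0.11 for HSP90AB1 and 0.17 for HSP90AA1. HSP90AB1 and HSPA8 together gave 30.6% of the members' summed FPKM with JNJ-7706621 and 28.8% with DMSO.

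The HSP90 co-chaperones were higher in 8 of 8 cases, with a median log2 difference of 0.32. FKBP4, the immunophilin that promotes steroid receptor transport, stood at 43.8 FPKM with JNJ-7706621 and 26.1 FPKM with DMSO, a ratio of 1.67 (1.60 to 1.75). AHSA1, the activator of the HSP90 ATPase, stood at 74.7 and 47.5 FPKM, a ratio of 1.57 (1.50 to 1.64). These were the co-chaperones past the size rule of 0.5, which CHORDC1 also passed with the length and GC correction. STIP1, the adaptor that passes clients from HSP70 to HSP90, stood at 70.3 FPKM with JNJ-7706621 and 53.7 FPKM with DMSO. ST13, which steadies the HSP70 complex, stood at 60.1 and 48.6 FPKM, and PTGES3, the p23 protein of the late HSP90 complex, at 152 and 130.5 FPKM.

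The kinase-loading co-chaperone CDC37 was among the least different of these, at 44.4 FPKM with JNJ-7706621 and 39.8 FPKM with DMSO, a ratio of 1.12 (1.06 to 1.17). CHORDC1, whose promoter holds the longest run of element words shown above, stood at 6.03 and 4.60 FPKM, a ratio of 1.31 (1.22 to 1.42). FKBP5, which acts against FKBP4 at the glucocorticoid receptor, was the least abundant member at 1.25 FPKM with JNJ-7706621 and 0.990 FPKM with DMSO. In FPKM, FKBP4 was at 34.9 times the level of FKBP5 with JNJ-7706621 and at 26.4 times with DMSO. These multiples depend on the exon lengths used, 5163 bases for FKBP4 and 10628 for FKBP5. FKBP4 shares 11.4% of its exon bases with exons of other genes, and whether counting used strand is not known here.

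All 8 subunits of the CCT ring, which holds each of them once per ring, were higher with JNJ-7706621, at a median log2 difference of 0.28 and a range of 0.09 to 0.50, though CCT8 was at -0.0028 with the length and GC correction. CCT3 stood at 156 FPKM with JNJ-7706621 and 120.2 FPKM with DMSO, CCT7 at 146 and 102 FPKM, and CCT4 at 126 and 93.8 FPKM. CCT6A stood at 107 and 90.5 FPKM, CCT5 at 68.3 and 63.7 FPKM, and CCT2 at 62.2 and 51.3 FPKM. CCT8 stood at 52.5 FPKM with JNJ-7706621 and 49.4 FPKM with DMSO, and TCP1, the first subunit of the ring, at 52.3 and 42.8 FPKM. Ratios ran from 1.42 (1.38 to 1.46) in CCT7 to 1.06 (1.02 to 1.11) in CCT8. The FPKM levels were unequal in both libraries, with the highest subunit at 2.99 times the lowest with JNJ-7706621 and 2.81 times with DMSO. These were CCT3 and TCP1, and the multiples depend on the exon lengths used, 3864 bases for CCT3 and 4883 for TCP1. CCT5 shares 30.1% of its exon bases with exons of other genes. Summed over the ring, the level was 770 FPKM with JNJ-7706621 and 614 FPKM with DMSO.

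The mitochondrial chaperones were split. TRAP1, the mitochondrial HSP90, stood at 59.9 FPKM with JNJ-7706621 and 39.6 FPKM with DMSO, a ratio of 1.51 (1.46 to 1.57), and shares 29.3% of its exon bases with exons of other genes. HSPD1, the HSP60 chaperonin, stood at 149.9 and 111 FPKM, a ratio of 1.35 (1.31 to 1.38). HSPA9, the mitochondrial HSP70 that pulls imported proteins into the matrix, went the other way, at 109 FPKM with JNJ-7706621 and 136 FPKM with DMSO. Its ratio of 0.803 (0.788 to 0.818) rested on 19811 and 25271 reads. DNAJA3, the J-protein that serves HSPA9, stood at 20.5 FPKM with JNJ-7706621 and 18.8 FPKM with DMSO, so the pair did not move together. In FPKM, HSPD1 was the more abundant of the matrix HSP60 and HSP70 genes with JNJ-7706621, and HSPA9 with DMSO. This order depends on the exon lengths used, 4123 bases for HSPD1 and 7946 for HSPA9. In reads HSPA9 exceeded HSPD1 in both libraries, as HSPD1 had 14102 with JNJ-7706621 and 10719 with DMSO.

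HSPE1, the HSP10 lid of the HSP60 chamber, stood at 9.52 FPKM with JNJ-7706621 and 7.67 FPKM with DMSO, a ratio of 1.24 (1.07 to 1.44). HSPD1 and HSPE1 lie head to head on chromosome 2, with 539 bases between their RefSeq starts. The run of element words shown for HSPD1 lies between these starts, 294 to 311 bases before that of HSPE1 and so outside its searched window. HSPD1 mRNA was at 15.7 times the level of HSPE1 with JNJ-7706621 and at 14.5 times with DMSO. Beside it, 6 pseudogene rows of its name summed to 42.04% of its FPKM with JNJ-7706621 and 40.3% with DMSO, and 23.9% of its exon bases are shared with exons of other genes. Of the 75-base words in HSPE1 transcripts 9.13% occur in other genes' transcripts, most of them in the read-through gene HSPE1-MOB4, which was listed at 0. The part of these in the HSPE1 level was not tested.

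The small heat shock proteins hold unfolded clients without ATP. HSPB8, the partner of BAG3, had the largest ratio in the set, 2.37 (1.83 to 3.08), at 3.08 FPKM with JNJ-7706621 and 1.30 FPKM with DMSO. It rested on 201 and 87 reads, the fewest of any member in each library, and the pseudocount of 1 held its log2 difference to 0.83. HSPB1, the abundant HSP27, stood at 31.5 FPKM with JNJ-7706621 and 27.9 FPKM with DMSO, a ratio of 1.13 (1.03 to 1.23). HSPB11, a part of the intraflagellar transport complex despite its name, stood at 8.75 and 6.29 FPKM, a ratio of 1.39 (1.23 to 1.57). The partners HSPB8 and BAG3 were thus both higher with JNJ-7706621.

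The heat shock factors were close to equal in the libraries. HSF1, the main factor of the heat shock response, stood at 13.4 FPKM with JNJ-7706621 and 12.6 FPKM with DMSO, a ratio of 1.07 (0.996 to 1.15). HSF2, which acts with HSF1 and in development, stood at 5.48 and 4.77 FPKM, a ratio of 1.15 (0.979 to 1.34). The mRNA level of a factor says nothing of its activity, which was not measured.

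**Figure D3:**
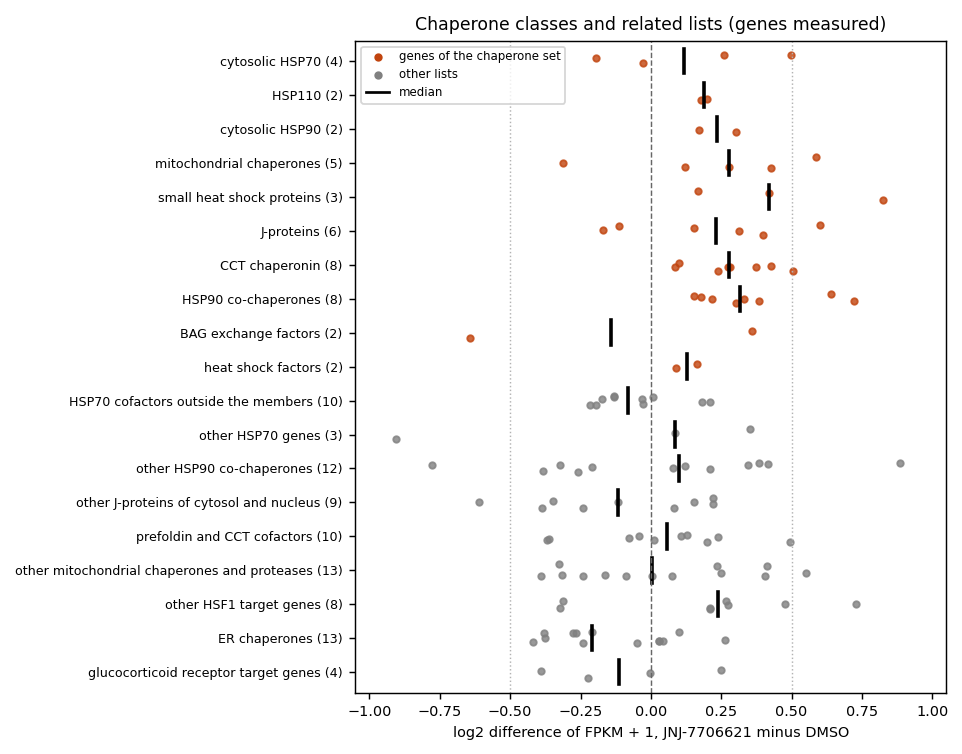
Log2 difference of FPKM + 1, JNJ-7706621 minus DMSO, for each gene of the 10 chaperone classes and of 9 related lists with a mean FPKM of at least 1, with the median as a bar and dotted lines at -0.5 and 0.5. The 8 CCT subunits and 8 HSP90 co-chaperones lie above 0 as plotted (CCT8 at -0.0028 with the length and GC correction), and the related lists lie on both sides.

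Heat shock element words were frequent in promoters of the set, as is known of these genes. The RefSeq promoters available here included 50 for 36 of the 42 genes. None were available for CCT6A, FKBP4, HSF1, HSPA14, HSPB11 and ST13, so these were not searched. A 3-unit word stood in 7 of these 50 promoters, or 14.0%, against 0.49% of all 35116 promoters, and a 2-unit word in 38.0%, against 13.5%. The genes with a 3-unit word were HSPD1, HSP90AB1, HSP90AA1, DNAJB6, DNAJA1, CHORDC1 and HSPA8. All 7 were higher with JNJ-7706621, as were 36 of all 42 members and 49.6% of all genes that passed the filter. The log2 differences of the 7 ran from 0.17 to 0.60, with a median of 0.40. In DNAJA1 the 3-unit word lies after the start.

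Genes with a 2-unit word alone had a median log2 difference of 0.17, and 7 of these 11 were above 0. Among them were HSPA1A, HSPA1B, HSPB1 and DNAJB1, which are well known heat shock genes, and HSPB8. The 18 genes with neither word had a median of 0.19, with 16 above 0, AHSA1, TRAP1 and CCT7 among them. The 6 genes not searched were all above 0, with a median of 0.28. Larger differences therefore occurred with and without a word, and the groups overlapped widely. A word in a window is not a site of binding, and its absence says only that these letters are not in that window.

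**Figure D4:**
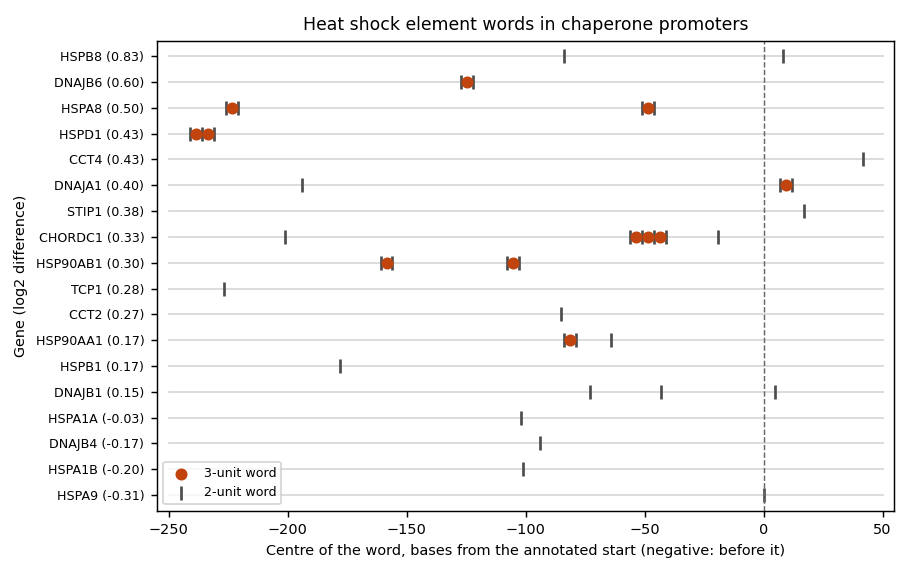
Centres of 2-unit words (ticks) and 3-unit words (circles) in the promoters of the 18 members that hold one, in bases from the annotated start, with genes in the order of their log2 difference. The 3-unit words of 7 genes lie between HSPB8 at 0.83 and HSPB1 at 0.17 in that order.

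Further genes of the same machinery lay on both sides of 0, and their difference from the set was not tested. Of 10 other HSP70 cofactors 3 were above 0 and 7 below, with a median log2 difference of -0.08, and those furthest from 0 were BAG6 at -0.21, HSPA4L at 0.21 and the nuclear import carrier HIKESHI at -0.19. Of 9 measured J-proteins outside the set, out of 13 listed, 4 were above 0 and the median was -0.12, or 0.15 at a mean FPKM of at least 5, with DNAJC13 at -0.61, DNAJB2 at -0.39 and DNAJC2 at -0.35. Of 10 genes of prefoldin, which hands clients to CCT, of CCT cofactors and of the subunit variant CCT6B, 6 were above 0 with a median of 0.06. PFDN2 stood at 79.3 FPKM with JNJ-7706621 and 56.0 FPKM with DMSO, while PDCL3 and CCT6B had log2 differences of -0.37 and -0.36. The 8 CCT subunits thus lay above 0 while these genes lay on both sides.

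Of 12 measured HSP90 co-chaperones outside the set, out of 14 listed, 7 were above 0 with a median of 0.10. TOMM34, an adaptor between chaperones and the mitochondrial import pore, stood at 43.0 FPKM with JNJ-7706621 and 22.8 FPKM with DMSO, a ratio of 1.88 (1.75 to 2.03). PPID, a cyclophilin that binds HSP90, had a log2 difference of 0.41. Of the other HSP70 genes, 3 of 5 were measured. HSPA2, known from the testis, stood at 5.54 FPKM with JNJ-7706621 and 11.3 FPKM with DMSO, a ratio of 0.492 (0.450 to 0.537), HSPA12A had a log2 difference of 0.35 and HSPA12B one of 0.09.

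Of 13 measured mitochondrial chaperones and proteases outside the set, out of 14 listed, 7 were above 0 with a median of 0.01. GRPEL1, the exchange factor of HSPA9, stood at 13.9 FPKM with JNJ-7706621 and 9.18 FPKM with DMSO, a ratio of 1.52 (1.39 to 1.65), against the lower HSPA9. SPG7 and LONP1, proteases of the inner membrane and the matrix, had log2 differences of 0.41 and -0.39. Of 8 measured HSF1 targets outside the set, out of 12 listed and partly shared with the lists above, 6 were above 0 with a median of 0.24. SERPINH1, the collagen chaperone, had a log2 difference of 0.73 and MRPL18 one of 0.48. The 7 other small heat shock protein genes were all under a mean FPKM of 1, and CRYAA, HSPB2, HSPB3 and HSPB9 were listed at 0 in both libraries.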

How the data were processed

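The values deposited by the authors are FPKM per gene, by the name of the deposited table and by the whole reads recovered from it. The build hg38 and edgeR, with no role, come from the submitters' processing notes. For aligner, counter, annotation and strand, the entry is not given in the sources used here. One column was matched to each sample, and 2 further columns of per-sample values were not used. Their names end in 2 where those used end in 1, no label studied here matches them, and they were not analysed here.

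Library totals and exon lengths were recovered as those for which FPKM times length times total is whole within 0.0001 reads, starting from GENCODE 29 lengths (14 members) and otherwise from the nearest length within 0.25 to 4 times the annotated one (28 members). From these reads came 95% intervals for FPKM ratios (exact, Clopper-Pearson). They cover counting error only, as PCR copies cannot be told from separate molecules. No count test was run. Log2 differences used a pseudocount of 1, which understates low genes, and a mean FPKM of at least 1. Size rules were 1 and 0.5. HSPA14 was read from its row with the higher mean. Comparisons of FPKM levels between different genes depend on the exon lengths used. Calculations (Python 3.11.15, pandas 2.3.3, scipy 1.17.1) were tested on simulated data. Promoters are from RefSeq on GRCh38.p14.

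Members and lists were chosen with earlier results of these data known. All members are named, and of each other list up to 3 genes with the largest difference. Some genes that this rule takes are not reported here. Further genes were named after their values were seen. Alternatives were pseudocounts, filters, scalings, subsets of members and a length and GC correction.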

Additional observations from a re-analysis of the deposited data

How the results depend on the processing

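No paired analysis was possible because each group has 1 library. The members' median log2 difference of 0.27 stayed between 0.23 and 0.29 over 10 alternatives, and 5 to 6 members were at least 0.5 higher in 9 of them, with CCT7 and CHORDC1 changing sides. Without the 20 members that can share reads with a copy or pseudogene, 4 of the remaining 22 were, and 19 were above 0. In the other alternatives 33 to 36 were above 0. A correction for exon length and GC content, added after the data were seen, kept 36 above 0 and turned HSPA1A to 0.03 and CCT8 to -0.0028. It put the medians of HSP110 at 0.29, cytosolic HSP90 at 0.14, prefoldin and CCT cofactors at -0.10 and ER chaperones at -0.18. Centring put the median of ER chaperones at -0.24. With a mean FPKM of at least 5 the medians were -0.91 for other HSP70 genes (1 gene left), 0.15 for other J-proteins (4 left) and -0.12 for other mitochondrial genes (10 left). Glucocorticoid receptor targets had -0.0195 after rescaling and 0.0377 without a filter. Over all genes, log2 differences of at least 1 and at most -1 numbered 608 and 409 with a pseudocount of 0.1, 274 lower with 0.5, 714 and 478 after rescaling to a sum of 1000000, 145 and 75 at a mean FPKM of at least 5, and 182 and 63 for protein-coding genes, a setting added later. Those of at least 0.5 and at most -0.5 numbered 2252 and 2219 after rescaling, 735 and 605 at a mean FPKM of at least 5, 2206 higher without a filter and 810 lower for protein-coding genes. Causes of these shifts, other than the change in genes tested, were not tested. Depth limits the interval of HSPB8 most among the members.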

Other observations

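The chaperones of the endoplasmic reticulum, a compartment outside the set, lay on both sides. Of 13 genes 8 were lower in the JNJ-7706621 library and 5 higher, where 50.4% of all genes were below 0, with a median log2 difference of -0.21. HSPA5, the HSP70 of that compartment, stood at 353 FPKM with JNJ-7706621 and 417 FPKM with DMSO, a ratio of 0.846 (0.834 to 0.859). Its cofactors DNAJC3 and DNAJB9 stood at 9.92 and 16.4 FPKM with JNJ-7706621 and at 13.2 and 21.6 FPKM with DMSO, and SDF2L1 had a log2 difference of -0.42. HSP90B1, the HSP90 of the compartment, stood at 182 FPKM with JNJ-7706621 and 219 FPKM with DMSO. The lectin chaperone CALR went the other way, at 197 and 164 FPKM. Summed over the 13 genes, the level was 1462 FPKM with JNJ-7706621 and 1573 FPKM with DMSO. Whether this differs from the cytosolic genes beyond the spread between cultures was not tested, since each group has 1 library.

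FKBP5 is also a target of the glucocorticoid receptor, so other targets were listed. Of 7 genes 4 were measured, 1 above 0 and 3 below, with a median log2 difference of -0.11. SGK1 had a log2 difference of -0.39, TSC22D3 one of 0.25 and DUSP1 one of -0.22.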
